A study of Mus musculus with 19 samples.

Results

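The Hippo pathway genes described here are 10 genes: the transcription factors Tead1, Tead2, Tead3 and Tead4, their co-activators Yap1 and Wwtr1, the TEAD-binding co-factor Vgll4, the kinases Lats1 and Lats2, and the scaffold protein gene Sav1. They are 10 of 16180 protein-coding genes of at least 5 kb in the mouse genome (mm10), and the rule that chose them is their names and roles in the pathway. The measure is the percentage of each gene's span plus 5 kb upstream that lies under 5-hydroxymethylcytosine (5-hmC) peaks, called here percent covered, together with the number of peaks. The samples were cardiomyocytes (CMCs) isolated from male C57BL/6J mice at 4 points, each with 2 biological replicates. The points were embryos at E14.5, neonatal pups of 1 to 2 days, adults of 2 months, and adults 1 week after TAC (transverse aortic constriction), an operation that narrows the aorta and makes the heart pump against higher pressure. The labels name no transgene or other allele in any group. DNA fragments with 5-hmC were enriched with an antibody and sequenced (hMeDIP), and the authors called peaks in each replicate against input DNA. The cells were enriched for CMCs but not pure, so a change of the mark within CMCs and a change in the share of other cells cannot be told apart.

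In the Hippo pathway, a kinase cascade ends in LATS1 and LATS2, which SAV1 helps to activate as a scaffold of the upstream kinases. Active LATS kinases phosphorylate YAP1 and TAZ (the product of Wwtr1) and so keep them out of the nucleus; unphosphorylated YAP1 and TAZ enter it and bind the TEAD factors, which recognize a short DNA element called M-CAT. VGLL4 binds the TEAD factors in place of YAP1. In the heart the pathway is known for restraining CMC proliferation, and M-CAT elements lie in many muscle genes. 5-hmC is made from methylated cytosine by TET enzymes and is often found along the bodies of transcribed genes.

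Before the values, the sequences on which the results turn are shown. They are the plus strand of GRCm38 (the assembly of mm10), with each CpG, the dinucleotide in which most 5-hmC lies, in capitals. Only 3 stretches of the 10 genes lay under peaks of both replicates at all 4 points: 1 each in the long introns 1 and 2 of Tead1 (+ strand gene) and 1 centred on coding exon 4 of Lats2 (- strand gene), which reaches into intron 4. The Tead1 stretch in intron 2 was 317 bp wide and its central 300 bases are given.

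Tead1, intron 1, chr7:112694145-112694295: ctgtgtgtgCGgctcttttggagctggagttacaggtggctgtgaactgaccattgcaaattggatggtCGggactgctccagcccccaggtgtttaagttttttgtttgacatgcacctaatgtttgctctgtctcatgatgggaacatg
Tead1, intron 2, chr7:112827912-112828211: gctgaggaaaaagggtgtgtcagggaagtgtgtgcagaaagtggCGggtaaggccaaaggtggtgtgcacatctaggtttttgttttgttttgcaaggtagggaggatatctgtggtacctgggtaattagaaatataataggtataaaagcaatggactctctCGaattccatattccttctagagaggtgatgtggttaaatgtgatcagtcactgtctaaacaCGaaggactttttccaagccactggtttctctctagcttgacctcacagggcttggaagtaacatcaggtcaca
Lats2, centred on coding exon 4, chr14:57699205-57699503: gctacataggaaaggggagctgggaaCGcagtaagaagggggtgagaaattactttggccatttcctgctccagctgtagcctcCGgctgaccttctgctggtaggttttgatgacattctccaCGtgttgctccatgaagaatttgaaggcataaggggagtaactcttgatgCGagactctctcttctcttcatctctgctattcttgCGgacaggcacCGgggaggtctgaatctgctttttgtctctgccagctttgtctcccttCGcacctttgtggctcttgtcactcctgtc

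The next stretch is shown as a CpG-rich example of those found at the first 3 points. It is the centre of an 858 bp stretch of Tead3 (- strand gene) under peaks of both replicates at E14.5, neonatal and adult. The stretch runs from within exon 10 to within exon 13. The 300 bases given hold exon 11, intron 11 and part of exon 12. They hold 18 CpG against 2, 3 and 7 in the 3 sequences above.

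Tead3, centred on intron 11, chr17:28333037-28333336: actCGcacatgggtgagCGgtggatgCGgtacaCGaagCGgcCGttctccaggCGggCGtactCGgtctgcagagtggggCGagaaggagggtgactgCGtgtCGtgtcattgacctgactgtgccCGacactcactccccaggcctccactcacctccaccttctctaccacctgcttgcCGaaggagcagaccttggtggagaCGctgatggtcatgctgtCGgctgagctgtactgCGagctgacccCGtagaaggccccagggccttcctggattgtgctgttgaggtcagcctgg

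A further set shows where the points differed. The Vgll4 and Lats2 stretches (both - strand genes) lay under peaks of both neonatal and both adult lists, in regions that no E14.5 list touched; no TAC list touched the Lats2 region either. The Tead2 stretch (+ strand gene) lay 3.53 kb upstream of the gene, under peaks of both adult lists. It is part of a merged region that all 6 lists of the first 3 points held and no TAC list held. The stretch itself lay under peaks of 4 lists: both adult lists, E14.5 replicate 2 and neonatal replicate 2.

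Vgll4, intron 2, chr6:114902193-114902492: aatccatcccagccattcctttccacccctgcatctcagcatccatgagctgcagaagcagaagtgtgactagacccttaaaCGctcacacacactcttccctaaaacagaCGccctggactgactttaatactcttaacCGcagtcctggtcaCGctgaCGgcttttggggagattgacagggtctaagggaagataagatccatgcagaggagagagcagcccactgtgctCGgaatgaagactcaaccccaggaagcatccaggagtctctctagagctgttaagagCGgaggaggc
Lats2, intron 1, chr14:57735321-57735620: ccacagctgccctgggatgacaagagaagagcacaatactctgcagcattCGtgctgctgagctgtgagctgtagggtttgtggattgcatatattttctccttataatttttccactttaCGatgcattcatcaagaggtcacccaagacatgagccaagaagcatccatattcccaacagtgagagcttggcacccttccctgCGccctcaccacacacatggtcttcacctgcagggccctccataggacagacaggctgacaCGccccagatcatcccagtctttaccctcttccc
Tead2, upstream, chr7:45212112-45212411: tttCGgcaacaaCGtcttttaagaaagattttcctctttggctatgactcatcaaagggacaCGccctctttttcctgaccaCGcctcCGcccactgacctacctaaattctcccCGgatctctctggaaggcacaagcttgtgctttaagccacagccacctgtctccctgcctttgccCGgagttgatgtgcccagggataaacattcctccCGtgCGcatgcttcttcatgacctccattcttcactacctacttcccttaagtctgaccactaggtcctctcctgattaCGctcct

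For contrast, the 250 bases before the start site of Yap1 are given on the gene's own (-) strand, since no list had a peak there although the stretch holds 44 CpG.

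Yap1, before the start site, chr9:8004597-8004846: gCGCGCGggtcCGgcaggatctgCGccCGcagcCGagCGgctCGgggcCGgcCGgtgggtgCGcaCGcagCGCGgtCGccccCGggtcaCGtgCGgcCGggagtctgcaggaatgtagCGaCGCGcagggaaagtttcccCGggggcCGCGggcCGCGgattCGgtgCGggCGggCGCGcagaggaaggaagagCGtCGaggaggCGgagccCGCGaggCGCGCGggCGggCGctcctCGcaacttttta

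The 8 lists held 104215 to 153637 peaks and covered between 2.46% and 4.48% of the genome. The number of reads is not in them, so depth is unknown and list length was not separated from depth. TAC replicate 2 stood apart. The density of peak centres 400 to 700 bp from the centres of another list, relative to that within 150 bp, was 1.66 to 4.11 in the 7 pairs with this list and 0.0387 to 0.215 in the other 21 pairs. Its centres were thus denser, per base, 400 to 700 bp from those of another list than within 150 bp. The share of its peaks placed in this way was not counted. Each TAC result is therefore given for both TAC lists. The labelled cell type was checked against marker genes by coverage, which is not expression. Over 8 CMC markers the mean percent covered was 20.5% to 30.7% at E14.5, then 33.5% to 35.1% (neonatal), 14.1% to 20.6% (adult) and 11.3% to 13.8% (TAC). Over 7 fibroblast markers it was between 1.03% and 4.34% in all 8 lists. Tcf21, which is shorter than 5 kb, was at 0 in 7 lists, Postn in 4, Pdgfra and Dcn in 3 and Vim in 2. Col1a1 (2.30% to 12.3%) and Col1a2 (1.22% to 3.67%) were covered in every list. Over 6 endothelial markers it was 8.28% to 8.83% at E14.5, then 5.07% to 11.0% (neonatal), 6.02% to 6.39% (adult) and 4.12% to 4.38% (TAC). Over 4 smooth muscle and pericyte markers the mean ranged from 3.74% to 7.74%, and over 5 blood markers from 0.328% to 9.35%. Among the blood markers Hba-a1 was at 0 in all lists and Cd68 between 0% and 37.3%, and both are shorter than 5 kb. The part of other cells in the results below was not tested.

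Most of the 10 genes were well covered by 5-hmC. Their regions together span 803 kb. Pooled over them, percent covered was 15.1% and 10.9% at E14.5, then 17.5% and 21.2% (neonatal), 19.6% and 20.3% (adult) and 18.8% and 9.46% (TAC) (replicates 1 and 2). This was 3.005 to 6.82 times the share of the genome covered by the same list. Between 8 and 10 of the 10 genes lay above the median of all genes in each list, which was 3.09% to 4.82%, and 2 to 5 lay above the 90th percentile. The lists held between 108 and 165 peaks on the 10 genes.

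**Figure D1:**
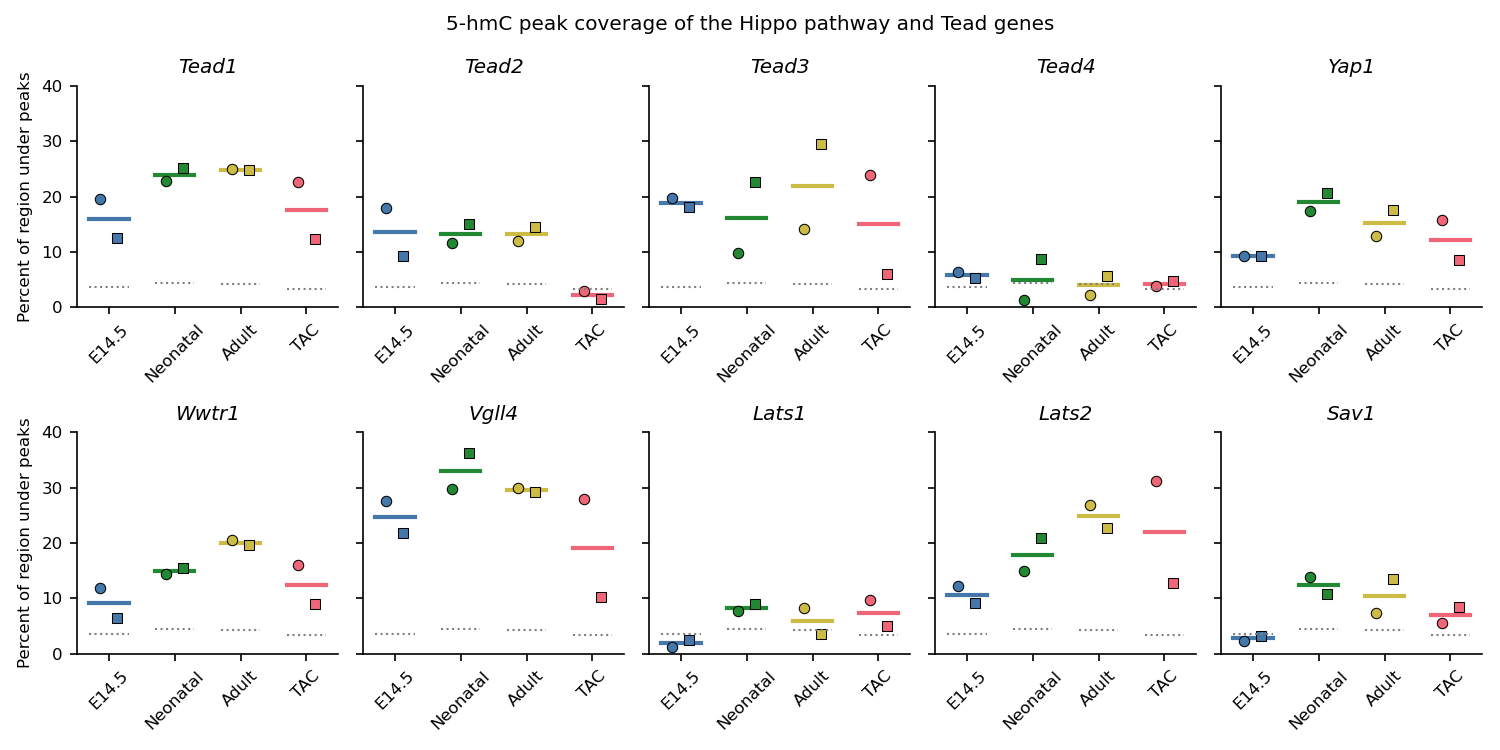
Percent of each gene's region (span plus 5 kb upstream) under 5-hmC peaks at the 4 points. Circles are replicate 1 and squares replicate 2, coloured bars are their mean, and dotted grey lines are the median of 16180 protein-coding genes, averaged over both replicates. Vgll4 and Tead1 were high throughout, Tead4 stayed close to the median line, and Tead2 was below 3% in both TAC lists.

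Among the transcription factors, Tead1 had the highest mean coverage. Tead1 (gene ID 21676; chr7:112679356-112906784, + strand, 227 kb) encodes a TEAD factor required for growth of the heart wall. Its percent covered was 19.6% and 12.5% at E14.5, then 22.7% and 25.1% (neonatal), 25.01% and 24.7% (adult) and 22.7% and 12.4% (TAC). The low values were those of E14.5 replicate 2 and TAC replicate 2; the other 6 lay between 19.6% and 25.1%. It ranked between the 89.4th and the 96.3rd percentile of all genes in the 8 lists and held 34 to 61 peaks.

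Tead2 (gene ID 21677; chr7:45215792-45233468, + strand, 17.7 kb) encodes a TEAD factor best known from the early embryo. Its percent covered was 17.9% and 9.19% at E14.5, then 11.7% and 15.0% (neonatal), 12.04% and 14.46% (adult) and 2.86% and 1.48% (TAC). Both TAC values were below all 6 others, and each TAC list had 1 peak on the gene against 3 to 6 in the other lists. Part of the difference lay upstream. The 5 kb upstream was covered by 19.9% and 16.3% at E14.5, then 22.8% and 37.5% (neonatal), 34.6% and 12.9% (adult) and 0% in each TAC list. Here the 5 kb runs into Dkkl1, a neighbour transcribed away from Tead2, so that peaks there cannot be given to 1 of the 2 genes. Without the upstream part, the gene span alone was covered by 5.67% and 14.9% in adult and by 3.67% and 1.90% in TAC lists, which also did not overlap.

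Tead3 (gene ID 21678; chr17:28331671-28350805, - strand, 19.1 kb), a TEAD factor known from placenta and muscle, was highly covered but its replicates disagreed. It had 19.7% and 18.2% at E14.5, then 9.71% and 22.7% (neonatal), 14.2% and 29.6% (adult) and 23.9% and 5.97% (TAC). Within each of the 3 later points one replicate had more than 2 times the coverage of the other, and no 2 successive points were apart. Its upstream 5 kb overlaps the gene Tulp1.

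Tead4 (gene ID 21679; chr6:128227143-128300813, - strand, 73.7 kb), a TEAD factor of the trophectoderm and of muscle differentiation, was the least covered TEAD gene. Its values were 6.27% and 5.23% at E14.5, then 1.27% and 8.65% (neonatal), 2.25% and 5.61% (adult) and 3.82% and 4.70% (TAC). They lay between the 25.2nd and 68.4th percentile of all genes, with no separation between points. Of the 4 TEAD genes it had the lowest mean over the 8 lists, 4.73%, followed by Tead2 with 10.6%, Tead3 with 18.0% and Tead1 with 20.6%; the ranges of Tead1 (12.4% to 25.1%) and Tead3 (5.97% to 29.6%) overlap, as do those of Tead2 (1.48% to 17.9%) and both its neighbours in this order.

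The co-activator genes Yap1 and Wwtr1 were more covered in both neonatal lists than in both E14.5 lists. Yap1 (gene ID 22601; chr9:7931999-8004596, - strand, 72.6 kb) had 9.22% and 9.26% at E14.5, then 17.4% and 20.6% (neonatal), 12.9% and 17.6% (adult) and 15.7% and 8.46% (TAC). Only TAC replicate 2 fell below the E14.5 values; the neonatal mean was 2.06 times the E14.5 mean. Wwtr1 (gene ID 97064; chr3:57455644-57575910, - strand, 120 kb) had 11.9% and 6.42% at E14.5, then 14.4% and 15.5% (neonatal), 20.5% and 19.7% (adult) and 16.0% and 8.998% (TAC). It stepped up at both transitions of normal growth without overlap of replicates, and both TAC values lay below both adult values. The uncharacterized gene Gm16016 lies within its span.

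Vgll4 (gene ID 232334; chr6:114860628-114969203, - strand, 109 kb), whose protein binds TEAD factors in place of YAP1, had the highest mean coverage of the 10 genes over the 8 lists, although Lats2 was higher in both TAC lists, Tead1 in TAC replicate 2 and Tead3 in adult replicate 2. It had 27.6% and 21.9% at E14.5, then 29.8% and 36.3% (neonatal), 29.9% and 29.3% (adult) and 27.9% and 10.3% (TAC). In 7 of the 8 lists it was above the 94th percentile of all genes, and in TAC replicate 2 it was at the 91.2nd.

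Lats1 and Sav1 were little covered at E14.5, while Lats2 was not. Lats1 (gene ID 16798; chr10:7681209-7716461, + strand, 35.3 kb) had 1.24% and 2.49% at E14.5, then 7.65% and 8.97% (neonatal), 8.25% and 3.53% (adult) and 9.70% and 5.05% (TAC). The 6 later values were all above the E14.5 values. Its upstream 5 kb reaches Nup43 and Pcmt1, and only TAC replicate 1 had a peak there. Lats2 (gene ID 50523; chr14:57689662-57746123, - strand, 56.5 kb) had 12.2% and 9.21% at E14.5, then 14.9% and 20.96% (neonatal), 26.9% and 22.7% (adult) and 31.2% and 12.8% (TAC). It was higher at each point up to the adult without overlap, and the TAC lists lay on either side of the adult values. Sav1 (gene ID 64010; chr12:69965012-69987002, - strand, 22.0 kb) had 2.36% and 3.27% at E14.5, then 13.8% and 10.9% (neonatal), 7.42% and 13.6% (adult) and 5.57% and 8.51% (TAC). Here too no later list fell to the E14.5 values, and the number of peaks was 1 in each E14.5 list and 3 to 5 in the later lists. The gene Gm3086 overlaps its span.

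From E14.5 to neonatal, 7 of the 10 genes were higher in both neonatal lists than in both E14.5 lists: Tead1, Yap1, Wwtr1, Vgll4, Lats1, Lats2 and Sav1. None was lower in both. Of all 16180 genes, 25.3% were higher and 6.4% lower by the same rule. The differences of the means in the 7 genes were between 5.79 and 9.75 percentage points, against a median of 0.571 over all genes. Differences in points were not adjusted for the higher coverage of these genes. On the log2 scale of the fit described below, the 7 genes lay between 0.41 (Vgll4) and 1.81 (Sav1), against a median of 0.27. Lats1 and Sav1 were the largest in relative terms: the mean of Lats1 went from 1.87% ± 0.880 to 8.31% ± 0.933 (SD, n = 2), and that of Sav1 from 2.82% ± 0.639 to 12.3% ± 2.08. Tead2, Tead3 and Tead4 overlapped. Since neonatal lists covered more of the genome, the comparison was repeated on percent covered divided by the genome share of each list; 4 genes (Yap1, Lats1, Lats2 and Sav1) were then higher and none lower, against 19.1% and 14.8% of all genes.

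In limma, fitted on log2(percent + 1) over the 13551 genes with a mean of at least 1%, which all 10 genes passed, no gene was called between E14.5 and neonatal at an adjusted p under 0.05 (0% of all genes). At an unadjusted p under 0.05 there were 961 genes (7.09%), 3 of them among the 10: Sav1 (log2 difference 1.81 ± 0.45 SE, adjusted p = 0.45), Lats1 (1.73 ± 0.55, adjusted p = 0.59) and Yap1 (0.96 ± 0.40, adjusted p = 0.70), against a median of 0.27 over all genes. With 2 replicates a point, missing the threshold does not show that coverage stayed the same. Beside these differences, 4 of 7 CMC markers of at least 5 kb were higher and none lower. Of other cells, 1 of 6 fibroblast markers was higher, and 2 of 6 endothelial and 1 of 2 blood markers were lower. None of 4 smooth muscle and pericyte markers was higher or lower.

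**Figure D2:**
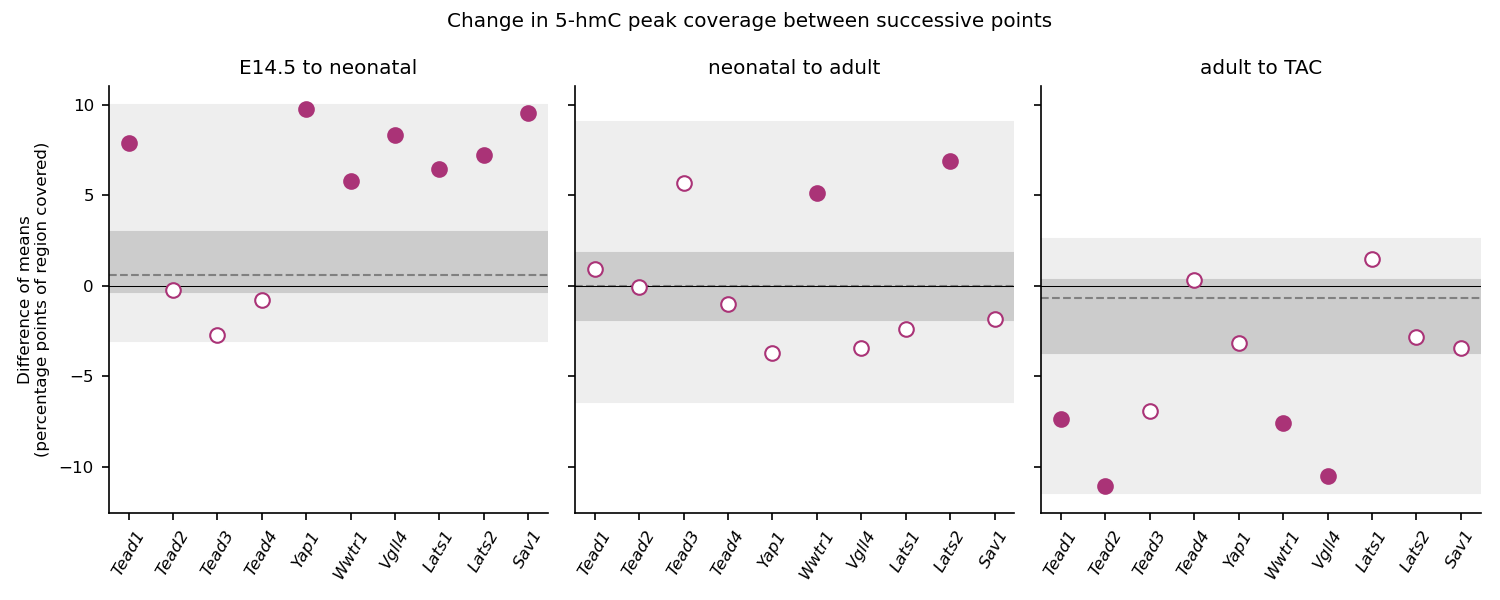
Difference of the mean percent covered between successive points, in percentage points. Filled points are genes whose replicates do not overlap, open points those that overlap; the light and dark grey bands hold the central 90% and 50% of 16180 protein-coding genes and the dashed line is their median. From E14.5 to neonatal 7 of the 10 genes are filled and above the dark band.

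From neonatal to adult, 2 of the 10 genes were higher without overlap, Wwtr1 and Lats2, and none was lower; of all genes 14.8% were higher and 21.2% lower. Wwtr1 went from 14.9% ± 0.754 to 20.1% ± 0.589 and Lats2 from 17.9% ± 4.28 to 24.8% ± 2.93 (SD, n = 2). Relative to the genome share of each list, Tead1 and Tead2 joined them, which gave 4 higher and 0 lower genes against 26.9% and 15.5% of all genes. These counts depended on single lists: without neonatal replicate 2, 6 genes were higher (28.0% of all genes), and without neonatal replicate 1, 6 were lower (39.7% of all genes). Without adult replicate 1 or adult replicate 2, 2 were lower (27.9% and 37.4% of all genes). All 7 CMC markers of at least 5 kb were lower at this step. Markers of other cells moved too. Lower were 2 of 6 fibroblast, 2 of 6 endothelial, 2 of 4 smooth muscle and pericyte and 1 of 2 blood markers. The smooth muscle marker Acta2 was higher. In limma no gene was called (0% of all genes); at an unadjusted p under 0.05 there were 1122 genes (8.28%), none among the 10, and the lowest adjusted p among them was 0.80.

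The labels do not say whether the adult mice had a sham operation, so the pressure load and the surgery itself cannot be told apart. From adult to TAC, 4 of the 10 genes were lower in both TAC lists than in both adult lists, Tead1, Tead2, Wwtr1 and Vgll4, and none was higher, against 22.9% and 6.04% of all genes. The mean of Tead2 was 13.2% ± 1.71 in adult and 2.17% ± 0.973 in TAC lists (SD, n = 2), the largest difference of the 4, with -11.1 percentage points. Relative to the genome share, only Tead2 was lower, against 15.5% of all genes, and none was higher, against 12.4%. TAC replicate 1 alone was below both adult lists in 5 of the 10 genes, Sav1 in addition to the 4, and above both in Lats1 and Lats2; 30.6% of all genes were below and 18.6% above. TAC replicate 2 alone was below both in 7, adding Tead3, Yap1 and Lats2 to the 4, and above both in none, against 42.8% and 18.4% of all genes. The count of 4 became 7 without TAC replicate 1 (42.8% of all genes), 5 without TAC replicate 2 (30.6%) and 8 without adult replicate 1 (46.0%). In limma no gene was called (0% of all genes). At an unadjusted p under 0.05 there were 934 genes (6.89%), with Tead2 the only one of the 10 (log2 difference -2.20 ± 0.46 SE, adjusted p = 0.42; median of all genes -0.35). With the gene span alone, none of the 10 had one. Marker lists moved at this step too. The mean over 5 blood markers was 7.66% to 8.13% in adult and 0.328% to 1.91% in TAC lists. Much of this came from Cd68, a gene shorter than 5 kb, with 36.9% and 25.4% in adult and 0% in both TAC lists. Of 2 blood markers of at least 5 kb, 1 was lower and none higher. Of 6 endothelial markers 4 were lower and 1 higher, and of 7 CMC markers 2 were lower and 1 higher. The part of these markers in the result was not tested.

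Over the 4 points together, the exact permutation test of single genes, one-sided over the 105 divisions of the 8 lists into 4 pairs, gave p-values between 0.095 for Sav1 and 0.91 for Tead4. None of the 10 genes had an unadjusted p under 0.05, against 8.91% of the 13551 genes tested, and after Benjamini-Hochberg adjustment 0% of all genes passed. The smallest p this test can give is 0.00952. With 1 list left out, 2 of the 10 had an unadjusted p under 0.05 without TAC replicate 2 (8.59% of all genes), 1 without TAC replicate 1 (9.61%) and 1 without adult replicate 2 (6.96%). Without the TAC lists the 15 divisions into 3 pairs give no p below 0.0667; Wwtr1 and Lats2 reached that value, as did 11.7% of all genes.

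Most peaks lay in introns. Merged over the 8 lists, the peaks of the 10 genes formed 300 regions, of which 262 were centred on introns, 13 on coding exons, 9 on untranslated exons, 14 upstream and 2 downstream. Of these, 99 regions were found in 1 list and 16 in all 8, among them 9 of Tead1, 4 of Vgll4, 2 of Lats2 and 1 of Wwtr1. The widest was a 17.1 kb region of Vgll4, centred on intron 2. Neighbouring peaks of several lists join into such a region without overlapping each other at one base, so being in 8 lists is a weaker statement than the common stretches below. At Lats1, Tead4, Sav1 and Tead3 many regions were in 1 list only: 11 of 17, 17 of 28, 7 of 13 and 6 of 12. At Lats2 these were 3 of 23, at Vgll4 5 of 27 and at Tead1 19 of 88.

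**Figure D3:**
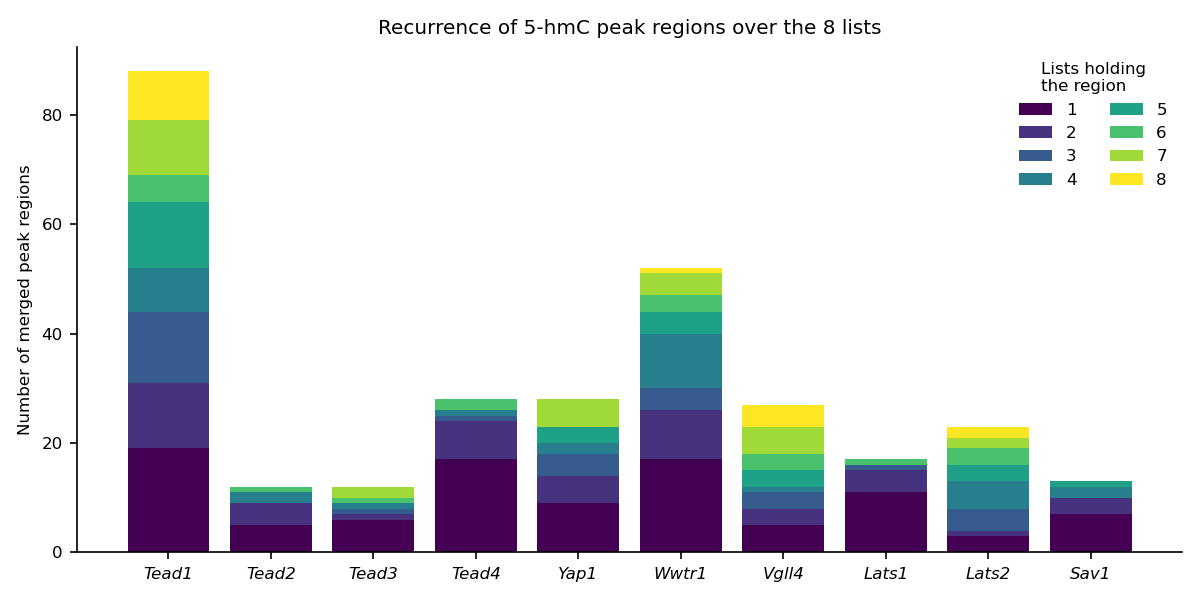
Number of merged peak regions of each gene by the number of lists (of 8) that hold the region, from 1 (dark) to 8 (yellow). Tead1 has the most regions, 88, with 9 in all 8 lists, while Tead2, Tead3, Tead4, Yap1, Lats1 and Sav1 have none in all 8.

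Tead1 introns 1 and 2 (79.7 kb and 79.8 kb) held 45.7% and 37.2% of its covered bases. Intron 1 was covered by 23.9% and 22.8% at E14.5, then 33.1% and 35.8% (neonatal), 29.1% and 29.8% (adult) and 27.9% and 15.6% (TAC). In intron 1 the 3 points of normal growth were apart and the neonatal point was the highest. Intron 2 had 20.1% and 10.4%, 24.1% and 26.1%, 27.6% and 27.7%, and 25.1% and 16.5% at the same points, with the adult point the highest. In Vgll4, intron 3 (26.5 kb) was the densest of the long introns, with 42.9% and 37.3% at E14.5, then 54.0% and 56.0% (neonatal), 44.1% and 44.3% (adult) and 46.6% and 14.1% (TAC). Here the neonatal lists were above the 6 others. In Wwtr1, intron 2 (73.0 kb) held 77.5% of the covered bases.

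In Yap1, intron 2 (27.5 kb) held 50.7% of the covered bases and had 16.6% and 11.7% at E14.5, then 32.7% and 26.8% (neonatal), 14.7% and 19.8% (adult) and 16.4% and 19.3% (TAC). The neonatal lists were the highest and adult and E14.5 lists overlapped. Intron 3 (11.4 kb) had 7.77% and 4.40% at E14.5, then 17.6% and 23.6% (neonatal), 20.8% and 26.7% (adult) and 13.4% and 0% (TAC), so that here the adult lists stayed above E14.5. Sav1 introns 2 and 3, which held 41.8% and 33.5% of its covered bases, had no peak in either E14.5 list, and coverage of 6.29% and 11.3% (intron 2) and 16.5% and 9.34% (intron 3) in the neonatal lists. In Lats2, coding exon 4, on which the common stretch printed above is centred, was covered with a mean of 64.4% over the 8 lists and a peak in each.

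**Figure D4:**
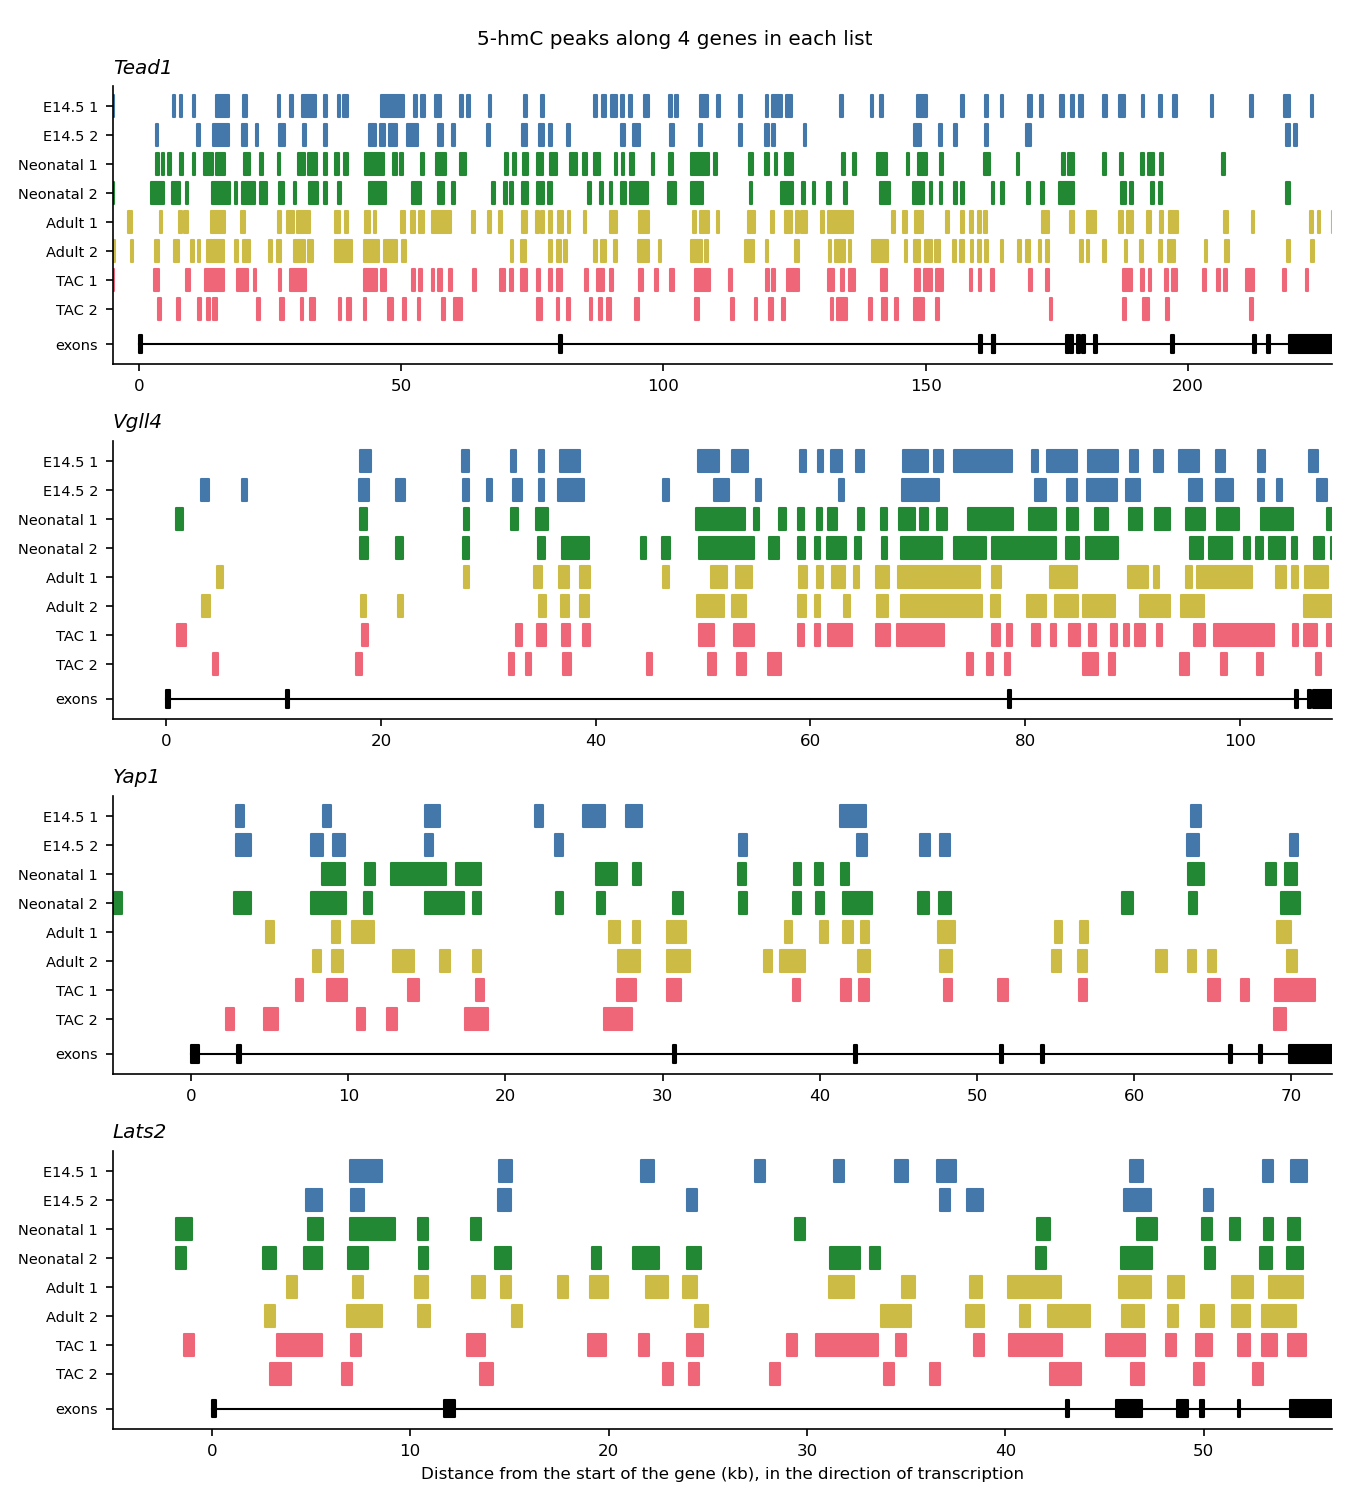
Peaks of each list along Tead1, Vgll4, Yap1 and Lats2 by distance in kb from the start of the gene, in the direction of transcription, with the exons of 1 RefSeq transcript in black below. Colours stand for the points, and the 2 rows of a colour are the replicates. Peaks fill Tead1 over 227 kb, while in Vgll4 they are sparse over the first part and dense beyond it, and none lies at the starts of Tead1 and Yap1.

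Peaks at start sites were few on the 10 genes. The same counts over all genes were not made, so whether this is particular to the 10 was not tested. The paper reports less of the mark at start sites at every point. Within 1 kb of their annotated start sites, Tead1, Tead2, Yap1, Wwtr1 and Lats1 had no peak in any of the 8 lists. Tead4 had a peak there in both TAC lists and in no other list. Sav1 had one in 2 lists, Tead3 and Vgll4 in 4 and Lats2 in 5. Of the 12 promoter windows of these genes in the RefSeq table used (250 bases before to 50 after a start site, GRCm38.p6), none touched a peak in any list. The table covers 8 of the 10 genes, with no entry matched for Tead1, Tead4 and 1 start site of Vgll4. The absent Tead4 window matters here. Peaks at its start ran from -0.041 to 0.46 kb in TAC replicate 1 and from -0.711 to -0.21 kb in TAC replicate 2. A Tead4 window of the same size would touch both. These windows held 1.33 to 16.7 CpG per 100 bases, against a median of 2.33 over the 32851 windows of the table, and the printed bases before the Yap1 start site held 17.6.

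The stretches under peaks of both replicates of a point, which the study used for its own analyses, were counted on the 10 genes: E14.5 had 62, neonatal 97, adult 98 and TAC 56. They were present in 8, 9, 9 and 7 of the 10 genes, against 55.9%, 61.4%, 54.5% and 37.4% of all genes. Lats1 had 1, in neonatal, and Sav1 had 2 in neonatal and 1 in adult. Yap1 went from 4 at E14.5 to 12 in neonatal and 10 in adult, and had 3 in TAC. Common to the first 3 points were 18 stretches in 5 genes (Tead1 6, Tead3 1, Wwtr1 1, Vgll4 8, Lats2 2); 19.9% of all genes had one. Common to all 4 points were the 3 printed above; 6.38% of all genes had one. The last count turned on TAC replicate 2: with TAC replicate 1 alone it was 15. It was 7 without E14.5 replicate 2, and 6 without neonatal replicate 1 or without adult replicate 1. Without E14.5 replicate 2, 30 stretches were common to the first 3 points. Of the peaks on the 10 genes, 43.6% and 57.4% at E14.5 shared at least 1 bp with the other replicate, with 63.9% and 54.5% (neonatal), 56.1% and 55.2% (adult) and 34.0% and 47.8% (TAC) at the other points.

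Regions were also counted where both lists of 1 point held a peak and no list of another point did. The 99 regions found in 1 list cannot enter these counts. Peaks that differ within a wide merged region are not seen by them either. The same counts over the regions of all genes were not made. The lists also differed in length, so the direction of these counts was not separated from list length. Of the 300 regions, 15 had peaks in both neonatal lists and in no E14.5 list (4 of Tead1, 3 each of Yap1 and Lats2, 2 each of Wwtr1 and Vgll4, 1 of Sav1), and 5 the reverse. In both adult lists but no E14.5 list were 24, and 9 were the reverse. In both adult lists but no TAC list were 16, of which Tead1 had 7 and Wwtr1 4, and 3 were the reverse. The Tead2 region upstream of the gene, from which its sequence was printed, is among the 16. In Yap1, a region in intron 3, centred 38.3 kb from the start (chr9:7965533-7967108), held peaks in both neonatal and both adult lists and in TAC replicate 1, and in neither E14.5 list.

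Peaks on the 10 genes had mean widths of 679 to 1049 bp per list, against 621 to 853 bp for all gene peaks, and were wider in each of the 8 lists. Over their whole width they held 1.19 to 1.62 CpG per 100 bases, against 1.22 to 1.69 for peaks centred on all protein-coding genes, with the lowest value of both in TAC replicate 2. The letters GGAATG or CATTCC, the core of the M-CAT element on either strand, stood in 11.6% to 19.3% of the central 300 bases of these peaks, against 15.1% to 18.7% over all gene peaks. Among the printed stretches under peaks the letters occurred in those of Vgll4 intron 2 and upstream of Tead2, and they also occurred in the bases before the Yap1 start site, which had no peak. A match of letters is not a bound site.

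The rest of the pathway was described with a list of 29 further Hippo genes, from the upstream kinases and regulators to other Vgll genes. From E14.5 to neonatal 12 of the 29 were higher without overlap and 2 lower, from neonatal to adult 3 were higher and 8 lower, and from adult to TAC 2 were higher and 14 lower. As shares of the list these are 41.4% and 6.9%, 10.3% and 27.6%, and 6.9% and 48.3%, against 25.3% and 6.4%, 14.8% and 21.2%, and 6.04% and 22.9% of all genes. The median differences were 2.07, -0.733 and -2.81 percentage points, against 0.571, -0.0359 and -0.704 over all genes. The largest positive differences after E14.5 were in Frmd6, an upstream activator (13.3% and 12.3% to 25.5% and 26.3%), and Map4k4, a kinase that acts on LATS (24.5% and 19.8% to 25.8% and 44.2%). The lower genes were Wwc1, which encodes the adaptor KIBRA (8.27% and 7.15% to 6.00% and 3.95%), and Taok3, a kinase (8.33% and 8.94% to 5.32% and 8.09%). From neonatal to adult the kinase gene Taok2 (5.66% and 13.1% to 18.6% and 18.5%) and the phosphatase gene Ptpn14 (28.0% and 36.5% to 37.1% and 37.4%) had the largest positive differences. The largest negative differences were in the angiomotin-like genes Amotl2 (32.5% and 48.9% to 26.1% and 12.9%) and Amotl1 (20.7% and 24.9% to 10.7% and 17.5%), whose proteins hold YAP1 in the cytoplasm. From adult to TAC the largest negative differences were in Map4k4 (32.2% and 41.2% to 25.9% and 16.4%) and Ajuba, which encodes a LIM protein that binds LATS (7.43% and 25.5% to 0% and 3.30%). The higher genes at that step were Taok1 (1.20% and 1.37% to 2.56% and 1.80%) and the protocadherin gene Fat4 (0.874% and 0.970% to 1.16% and 1.16%).

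Of 9 genes known as targets of YAP1 and TEAD factors, 6 had a span of at least 5 kb. From E14.5 to neonatal 1 of the 6 was higher without overlap, F3, which encodes tissue factor (14.2% and 6.10% to 20.7% and 32.3%). From neonatal to adult 2 were lower: Ankrd1, a stress-responsive gene of muscle (22.0% and 20.7% to 8.47% and 8.11%), and Tgfb2, a growth factor gene (20.5% and 18.4% to 8.71% and 10.6%). From adult to TAC 2 were lower: Tgfb2 again (to 7.69% and 4.54%) and Myc (11.5% and 11.1% to 10.7% and 10.1%). The 3 shorter genes, Ccn1, Ccn2 and Nppb, varied widely between replicates, with Ccn2 for example at 13.7% and 48.3% in the neonatal lists, and were left out of the counts. With 6 genes, 1 higher is 16.7% against 25.3% of all genes, and 2 lower is 33.3% against 21.2% and 22.9%.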

How the data were processed

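Peaks of 8 hMeDIP samples (4 points, 2 biological replicates each) were analysed; the input and sh-control samples were not used. The authors mapped reads with BWA (mm10), discarded duplicate and poorly mapped reads, and ran HOMER in histone mode on each replicate against input. Each list was called separately, so percent covered moves with list length. The deposited lists give peak positions and a score that is 1 throughout. Per the file headers, 4 lists had the control scaled to the immunoprecipitate, with the reverse in neonatal replicate 2, adult replicate 2 and both TAC lists. Depth is unknown. Gene spans were those of curated RefSeq transcripts (GRCm38.p6). Intervals were computed in Python 3.11.15 and checked against bedtools 2.31.1 on simulated intervals. Tests were limma 3.58.1 (R 4.3.3; log2 of percent plus 1, trend and robust, Benjamini-Hochberg over all genes) and an exact permutation test; with 2 against 2 samples the exact two-sided test cannot go below 0.333. Named genes were the 10 members and, per transition, the 2 largest differences without overlap in each direction in each list, with the genes most like Tead1 and Yap1 by Pearson's r; 1 named gene is not reported here. The members and lists were chosen with earlier results of these data known. Alternatives were other spans, annotations, peak sets, scales, pseudocounts and left-out samples.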

Additional observations from a re-analysis of the deposited data

How the results depend on the processing

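The counts were the same with predicted RefSeq models and with GENCODE M21 spans. Without the 5 kb upstream they were also the same, except those at an unadjusted p under 0.05 in limma. There 2 of the 10 genes remained from E14.5 to neonatal, against 3 with the upstream part, and 0 from adult to TAC, against 1. Of all 13296 genes in that fit, 924 and 899 were under 0.05. With the same number of peaks drawn from each list, 4 genes were higher from E14.5 to neonatal, 2 were lower and 1 higher from adult to TAC, and 1 and 7 stretches were common to all 4 and to the first 3 points. Relative to the genome share of each list, 4 genes were higher from E14.5 to neonatal, 4 higher from neonatal to adult and 1 lower from adult to TAC. By peaks per 10 kb, 1 gene was lower from neonatal to adult, and the Vgll4 difference from adult to TAC reversed to 0.088 peaks per 10 kb (counted by peak centre). With peaks at least 600 bp wide, 1 gene was lower from neonatal to adult and 11 stretches were common to the first 3 points. The cause was not tested. Keeping only peaks that share 1 bp (or 50%) with the other replicate makes replicates alike by construction: 2 (2) genes were then lower from E14.5 to neonatal, 3 (4) lower from neonatal to adult and 7 (7) lower from adult to TAC, 4 (6) differed over the 4 points, and limma called 4 (5), 0 (3) and 5 (6) of the 8 (7) genes tested at the 3 transitions. Of all genes, 17.6% (20.1%), 34.1% (37.7%) and 43.1% (43.8%) were then lower, 54.3% (70.2%) differed, and limma called 4507 (5184), 4894 (5655) and 5874 (5583) of 9212 (7541); with 50%, 4 genes were higher from neonatal to adult and 0 and 3 stretches were common to all 4 and to the first 3 points. Leaving out 1 sample at a time, 7 to 9 genes were higher and 0 to 2 lower from E14.5 to neonatal, 2 to 6 higher and 0 to 6 lower from neonatal to adult, 0 to 2 higher and 4 to 8 lower from adult to TAC, 0 to 2 differed over the 4 points, and 3 to 15 and 20 to 30 stretches were common to all 4 and to the first 3 points; limma called 0. Pseudocounts of 0.25 and 4, the arcsine scale and fits of only the 2 points compared also called 0 of the 10 genes; so did the fit with no filter, in which up to 141 of all genes passed.

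Samples with the same replicate number share only a number: their deviations from the point means correlated with r between 0.0159 and 0.245. With the replicate number as a block, limma called 0 of the 10 genes at each transition.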

Other observations

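The genes whose percent covered followed that of Tead1 most closely over the 8 lists, of 13550 compared, were Dip2b (Pearson's r = 0.98), Srebf2 (0.98) and Plxna4 (0.98). For Yap1 they included Ndrg1 (0.98) and Mbd2 (0.98). These are descriptions over 8 lists that all genes share, with their differences in length; 190 genes had r above 0.9 with Tead1 and 162 with Yap1. Srebf2 ranged from 8.24% in TAC replicate 2 to 31.5% in neonatal replicate 2, and Ndrg1 from 6.29% to 23.0% in the same lists.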
